A study of Mus musculus with 8 samples.

Results

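The genes described here encode bone morphogenetic protein (BMP) ligands (Bmp2, Bmp4 and Bmp6), BMP receptors (Bmpr1a, Bmpr2 and Acvr1), the secreted antagonist Gremlin (Grem1) and the ID proteins Id1, Id2 and Id3. They were chosen by gene symbol in the annotation of the array, which gave 10 of the 18194 genes named there and 21 of the 45101 probe sets. A probe set is a group of short DNA probes that together read 1 transcript. Of the 21 probe sets, 12 from 7 genes reached a normalized intensity of 100 on at least 2 arrays and were tested, and the other 9 were below this level. These 9 include the single probe sets of Bmp2, Bmp6 and Grem1.

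RNA from mouse cell lines had been hybridised to Affymetrix mouse genome arrays of 1 colour, with 2 arrays for each of 4 groups. OP9 with 230-238 was the bone marrow stroma line OP9 (labelled strain B6C3F1) grown in contact with 230-238, a pre-B cell line, and OP9 was the same line without these cells. The labels call the samples without them only a culture, while the methods compare the co-culture with stroma in conditioned medium, so whether these are those controls is not settled by the labels. By the methods, co-cultured OP9 cells carried the red fluorescent protein mStrawberry from a retrovirus and were sorted by its colour away from the pre-B cells, and whether the OP9 arrays were sorted in the same way is not given in the labels. MC3T3 is an osteoblast-like line and NIH3T3 an embryonic fibroblast line that the study describes as unable to support B-cell development, both labelled Balb/c and grown in Dulbecco's medium, whereas OP9 had OptiMEM. 1 of the MC3T3 arrays is described as sorted cells. Each group is a single cell line, so a difference between lines is one between these cultures. Medium and labelled strain differed together with the line between OP9 and either MC3T3 or NIH3T3. Sorting was not described alike for all arrays, so it may differ with the line as well. In the labels the 2 arrays of each group are biological replicates, and if they came from 1 culture the p-values measure technical spread only.

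BMPs are secreted dimers that bring together type I receptors (such as those encoded by Bmpr1a and Acvr1) and type II receptors (such as that of Bmpr2). The type I receptor then phosphorylates SMAD1, SMAD5 and SMAD9, which enter the nucleus with SMAD4 and switch on target genes, among which the Id genes are the classical ones. ID proteins are helix-loop-helix proteins without a DNA-binding part that bind E proteins and keep them from DNA, and in bone marrow BMP signals are known from stroma, bone and fat cell development.

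Over the 18720 probe sets tested, the median difference between the 2 arrays of a group was 0.07 on the log2 scale in both OP9 groups, 0.10 in MC3T3 and 0.16 in NIH3T3. In NIH3T3 214 probe sets differed by more than 2-fold between the arrays, against 1 in each of the OP9 groups and 16 in MC3T3. Stroma collagen genes were above 100 in all groups, but Col3a1 was lower in NIH3T3 (455 and 433) than in the other groups (2722 to 4384). Col1a1 read 9966 to 10568 in the OP9 groups, 2239 and 2200 in MC3T3 and 3542 and 2906 in NIH3T3. The other stroma markers listed also differed between the lines. Pdgfra read 6978 to 9970 in the OP9 groups, 848 and 804 in MC3T3 and 2351 and 2304 in NIH3T3. Pdgfrb read 1571 to 3169, 1924 and 1996, and 342 and 405 in the same order. Thy1 read 1255 and 1104 in MC3T3 but only 22.4 to 29.7 in the OP9 groups and 30.8 and 24.3 in NIH3T3. Of 7 osteoblast markers listed, 4 were matched (Sp7, Alpl, Ibsp and Phex), while Runx2, Bglap and Bglap2 were not and could not be read. None of the 4 reached 100 in MC3T3 cells, so the osteoblast label of this line was not borne out by these 4. Values are normalized intensities on a linear scale unless a log2 difference is named. A probe set passed the test at an adjusted p below 0.05 and was called where it also differed by at least 2-fold, in the sense of limma's moderated test with adjustment over all probe sets tested.

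Among the 12 tested probe sets none was called higher and 2 were called lower in OP9 with 230-238 than in OP9, those of Id1 and Bmp4. Of all probe sets tested, 2.43% were called higher and 2.93% lower (5.36% in either direction). Without the 2-fold minimum 7 of the 12 were lower and none higher, against 23.3% lower and 14.0% higher among all probe sets. At an unadjusted p below 0.05, 9 were lower and 1 higher, against 29.0% lower and 17.7% higher among all. The median log2 difference was -0.44 over the 12 probe sets and -0.06 over all. Several of the 12 read the same gene. Counted by gene, each by its probe set of highest mean, 2 of 7 were called lower and none higher. Without the 2-fold minimum 5 genes were lower and none higher, and the median over genes was -0.51.

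Id1 showed the largest difference of the 12 between the co-cultured and the control stroma. Its intensity was 435 and 485 in OP9 with 230-238, against 1888 and 1765 in OP9. The groups did not overlap, and the co-cultured arrays were also below both arrays of MC3T3 (1040 and 936) and of NIH3T3 (878 and 795). The log2 difference to OP9 was -1.99 (SE 0.10, 95% interval -2.22 to -1.76), which is 3.98-fold lower (adjusted p = 1.92e-05, limma). Against MC3T3 co-cultured cells were lower by a log2 difference of -1.10 (adjusted p = 5.10e-05, limma) and against NIH3T3 by -0.86 (adjusted p = 1.39e-04, limma).

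Id2 was measured by 2 tested probe sets that read the same gene and are not independent. With 1422537_a_at the intensity was 373 and 435 in OP9 with 230-238, against 693 and 750.5 in OP9. With 1435176_a_at it was 529 and 626 in OP9 with 230-238, against 992 and 1053 in OP9. On both, each co-culture array lay below each OP9 array, and the log2 differences were -0.84 (SE 0.13, adjusted p = 0.00254, limma) and -0.83 (SE 0.14, adjusted p = 0.00340, limma), which passed the test at less than 2-fold. The third Id2 probe set, 1453596_at, did not reach the level for testing (15.8 and 21.9 in OP9 with 230-238, 34.1 and 37.5 in OP9).

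Id3 had the smallest difference of the tested Id probe sets. It read 2620 and 2707 in OP9 with 230-238, against 4019 and 3594 in OP9, again without overlap. The log2 difference was -0.51 (SE 0.10, 95% interval -0.74 to -0.28, adjusted p = 0.00627, limma), so that Id3 fell 1.43-fold. Unlike Id1, Id3 in the co-cultured cells stayed above both arrays of MC3T3 and of NIH3T3.

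**Figure D1:**
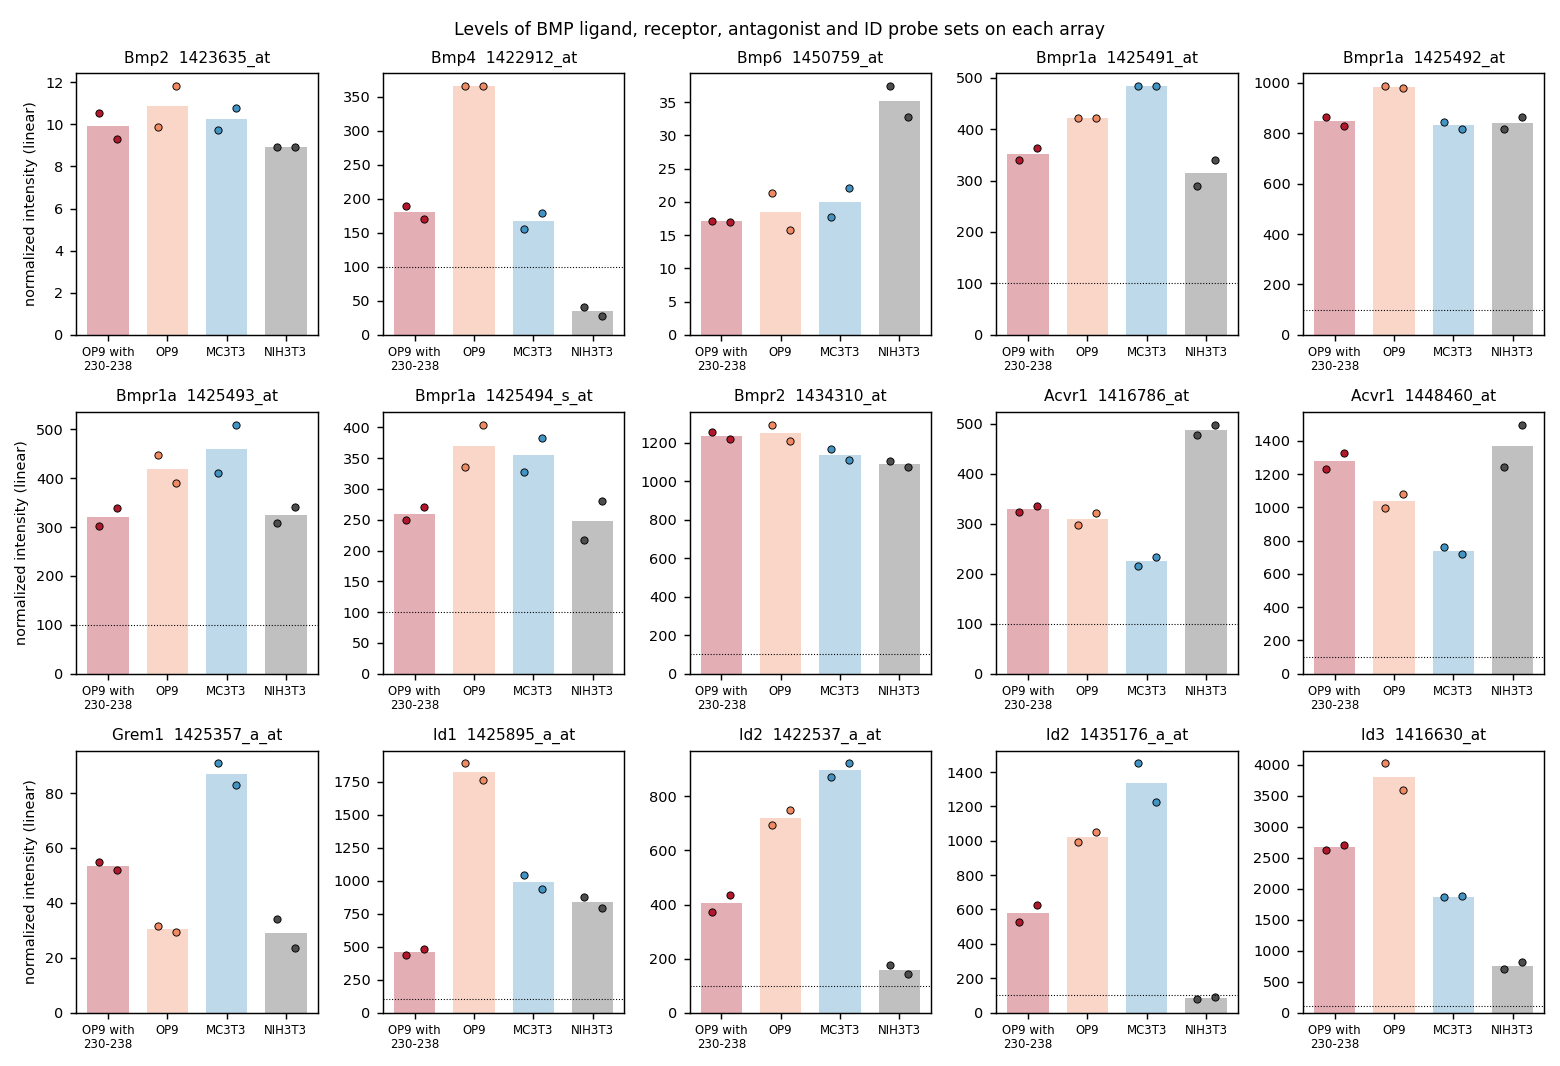
Normalized intensity (linear axis from 0, own scale for each panel) of the 12 tested probe sets and those of Bmp2, Bmp6 and Grem1 in OP9 with 230-238, OP9, MC3T3 and NIH3T3 cells. Points are the 2 arrays of a group, bars their mean and the dotted line the level of 100; Id1 is at 435 and 485 in the co-cultured cells, below all 6 other arrays.

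Bmp4, the only tested ligand, fell as well. It read 189.6 and 170.1 in OP9 with 230-238, against 365 and 366 in OP9. The log2 difference was -1.03 (SE 0.17, 95% interval -1.43 to -0.62, adjusted p = 0.00377, limma), which is 2.04-fold and just past the minimum for a call. The co-cultured cells were thus close to MC3T3 (156 and 179), from which they differed by a log2 difference of 0.11 (95% interval -0.30 to 0.51). The call was lost without array 2 of the co-culture (-0.95, adjusted p = 0.0326, limma), after quantile normalization (-0.96) and with a pseudocount of 16 (-0.96), each time because the fold fell under 2 while the adjusted p stayed below 0.05. In RNA from many cells, fewer cells that express a gene and less of its RNA in each cell cannot be told apart.

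The receptors moved less. Bmpr1a, the type I receptor gene also known as Alk3, had 4 tested probe sets, on which co-cultured cells were lower by log2 differences of -0.22 to -0.50. Of these, 1425492_at (863 and 831 in OP9 with 230-238, 989 and 982 in OP9) and 1425494_s_at (249 and 270.3 in OP9 with 230-238, 335 and 405 in OP9) passed the test, with adjusted p of 0.0469 and 0.0385 from limma. The other 2, 1425491_at and 1425493_at, did not (adjusted p = 0.0637 and 0.0565, limma), although on all 4 the co-culture arrays lay below the OP9 arrays. Bmpr2, the type II receptor gene, read 1252 and 1216 in OP9 with 230-238 and 1293 and 1206 in OP9. The groups overlapped, and the log2 difference of -0.02 had a 95% interval of -0.19 to 0.16. Acvr1, the type I receptor gene also known as Alk2, had differences of 0.10 (95% interval -0.09 to 0.29) and 0.30 (0.05 to 0.56) on its 2 tested probe sets, and neither passed the test (adjusted p = 0.378 and 0.063, limma). On all 3 Acvr1 probe sets, the untested one included, both co-culture arrays lay above both OP9 arrays. The other receptor probe sets stayed below the level for testing on every array, Bmpr1a at 27.3 to 50.2 on 1445413_at and 42.8 to 52.8 on 1451729_at, Bmpr2 at 35.4 to 84.1 on 1419616_at and 20.0 to 27.3 on 1441652_at, and Acvr1 at 29.4 to 40.7 on 1416787_at.

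Grem1, whose product binds BMP2, BMP4 and BMP7 and keeps them from their receptors, read 54.8 and 52.1 in OP9 with 230-238, against 31.7 and 29.5 in OP9. Both values are below the level for testing, and with no filter the log2 difference was 0.80 (95% interval 0.41 to 1.20, adjusted p = 0.0188, limma), or 1.75-fold. Bmp2, at 8.9 to 11.8 on the 8 arrays, and Bmp6, at 15.7 to 37.5, encode other ligands. Both had co-culture and OP9 arrays that overlapped and log2 differences of -0.13 (95% interval -0.41 to 0.16) and -0.10 (-0.49 to 0.29) with no filter.

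**Figure D2:**
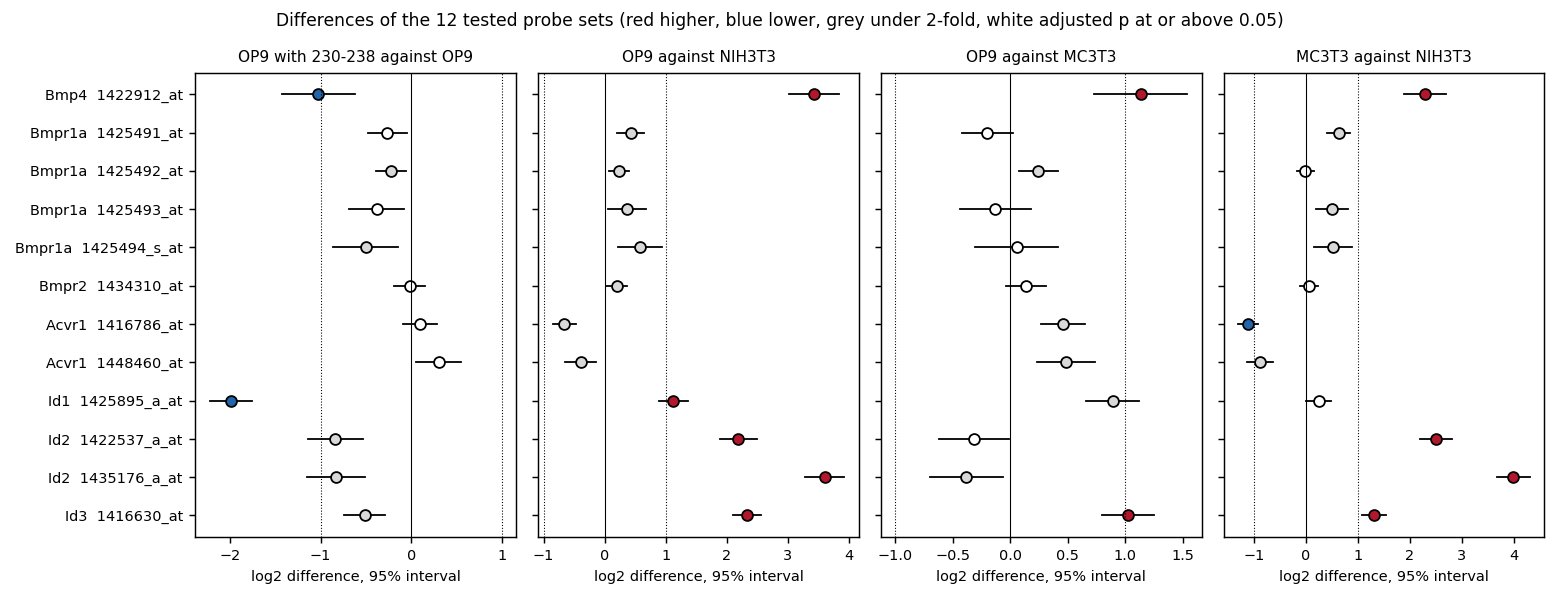
Log2 difference (horizontal axis, own range for each panel) with its 95% interval for the 12 tested probe sets in the 4 comparisons. Filled red and blue points were called higher and lower, grey points passed the adjusted p below 2-fold and white points did not pass; in co-culture, Id1 (-1.99) and Bmp4 (-1.03) were called.

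Among other genes of the BMP pathway, 49 of 54 listed had a probe set and 30 were tested, each by its probe set of highest mean. In co-culture 4 were called lower and none higher, against 2.93% lower and 2.43% higher among all probe sets. Without the 2-fold minimum 11 were lower and 9 higher, against 23.3% and 14.0%, with a median log2 difference of -0.11 against -0.06 over all. At an unadjusted p below 0.05, 12 were lower and 9 higher, against 29.0% and 17.7%. The called genes were Nbl1, Id4, Smad6 and Atoh8. Of the 30 genes 17 had more than 1 tested probe set, and in co-culture the call differed between them for 1 gene, Id4. The 8 other ligand genes with a probe set (Bmp5, Bmp7, Bmp8a, Bmp8b, Bmp10, Bmp15, Gdf2 and Gdf5) all stayed below the level for testing.

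Id4, the remaining Id gene, read 161.5 and 139.5 in OP9 with 230-238, against 359 and 342 in OP9 (log2 difference -1.22, SE 0.10, adjusted p = 0.000163, limma). Another tested Id4 probe set was also called lower, at -1.02 (adjusted p = 0.00105, limma). The remaining one was lower by -0.84 (adjusted p = 0.0136, limma), under 2-fold. Smad6, an inhibitory SMAD that is itself switched on by BMP signals, read 347 and 319 in OP9 with 230-238, against 718 and 730.0 in OP9 (-1.12, SE 0.08). Atoh8, a helix-loop-helix factor known as a BMP target in liver, read 309 and 372 in OP9 with 230-238, against 735 and 668 in OP9 (-1.05, SE 0.12). For each of these genes both co-cultured arrays lay below both OP9 arrays. The call for Atoh8 was lost after quantile normalization (-0.98), without array 1 of the co-culture (-0.91) and without array 1 of OP9 (-0.98). Of the other targets, Dlx5, a homeobox gene of bone development, passed the test at -0.93, and Msx1, another homeobox gene, was at 121 and 113 in OP9 with 230-238 and 132 and 118 in OP9.

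The secreted antagonists did not move one way. Nbl1, a DAN family antagonist, fell (144 and 156 in OP9 with 230-238, 349 and 413 in OP9, log2 difference -1.34, SE 0.13, adjusted p = 0.000315, limma), and Bmper (-0.65) and Twsg1 (-0.36), which encode modulators that bind BMPs, were lower below 2-fold. Chrdl1 (0.92), Fstl3 (0.80) and Fst (0.73), which encode a chordin-like protein and follistatins that bind BMPs or activins, were higher below 2-fold. Chrdl1 read 359 and 429 in OP9 with 230-238, against 199 and 216 in OP9, and was called after quantile normalization (1.01) and without array 1 of the co-culture (1.05). Among the transducers Smad1 (0.30) and Smad5 (0.28) were higher at adjusted p of 0.0243 and 0.0227 (limma). Another Smad1 probe set passed as well (0.29, adjusted p = 0.0197, limma), and the remaining one, at 0.10, did not. The other Smad5 probe sets did not follow, with differences of 0.03 and -0.16. Of the E protein genes, whose products ID proteins bind, Tcf3 was higher by 0.30 (adjusted p = 0.0376, limma), Tcf4 differed by 0.19 and Tcf12 by -0.12. The other 2 Tcf3 probe sets did not pass (0.35 and 0.39). Of the 4 tested Tcf12 probe sets, 1 was lower in co-culture at -0.60 (adjusted p = 0.00334, limma), and the other differences were -0.08 to -0.21.

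**Figure D3:**
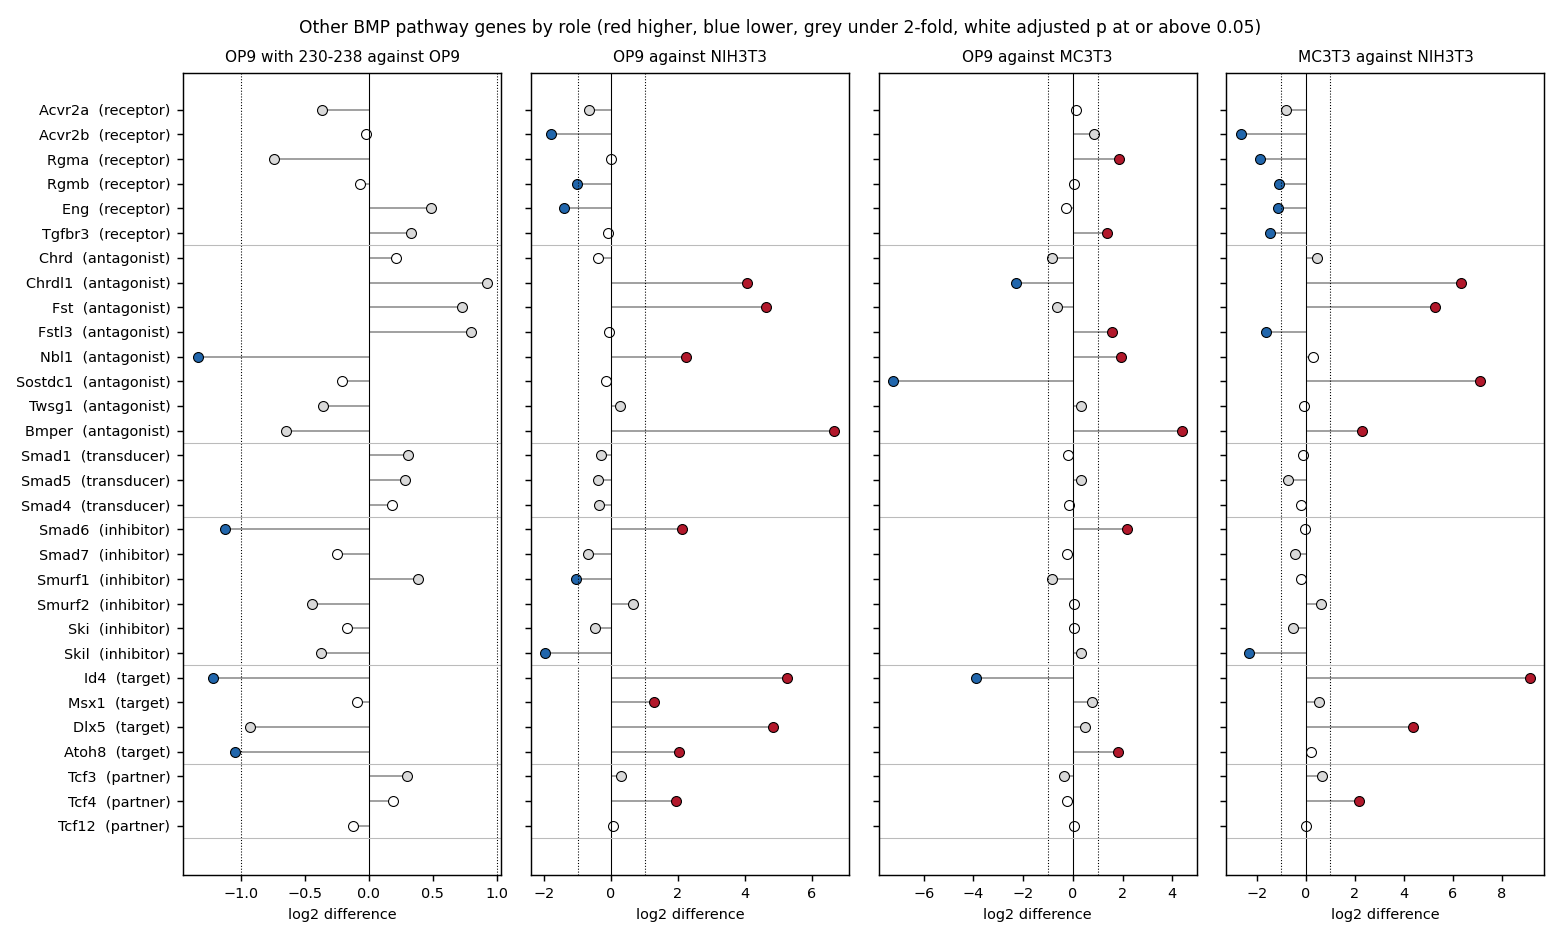
Log2 difference (horizontal axis, own range for each panel) of the 30 other tested BMP pathway genes, grouped by role, in the 4 comparisons, with colours as in the plot of the members. In co-culture all 4 called genes (Nbl1, Smad6, Id4 and Atoh8) lie below 0.

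Some markers of other cells differed between the same arrays. The 11 matched pre-B and leukocyte genes summed to 831 to 852 in OP9 with 230-238 and to 516 to 535 in OP9, and 3 of them reached 100 in the co-cultured cells against 1 in OP9. In NIH3T3, grown without pre-B cells, they summed to 575 to 692, and 3 reached 100 there too by their mean. These were Igll1, Ighm and Laptm5, whereas Ighm, Laptm5 and Coro1a did so in the co-cultured cells. Coro1a, a leukocyte actin-binding protein, read 116 and 125 in OP9 with 230-238 against 25.9 and 23.9 in OP9, and reached 100 in no other group, Ptprc (CD45) 34.6 and 31.1 against 8.9 and 8.6, and Vpreb1, of the pre-B receptor, 77.7 and 76.0 against 25.8 and 21.6. Cd53 read 77.7 and 80.5 in OP9 with 230-238 against 24.6 and 22.8 in OP9, and Cd79b 32.1 and 28.5 against 18.7 and 18.6. For Cd53 and Cd79b both co-culture arrays lay above all arrays of the other groups, which was not so for Cd79a, Rag1 and Pax5. Ptprc, Vpreb1, Cd53, Cd79a, Cd79b, Rag1 and Pax5 all stayed below 100 on every array and were not tested. Igll1, Ighm and Laptm5 did not pass the test in co-culture (adjusted p = 0.191, 0.374 and 0.113, limma), and Igll1 was highest in NIH3T3 (144 and 102). The 5 matched adipocyte genes summed to 11752 to 11857 in OP9 with 230-238, against 34452 to 34481 in OP9. The part of either cell content in the lower BMP and Id values was not tested.

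**Figure D4:**
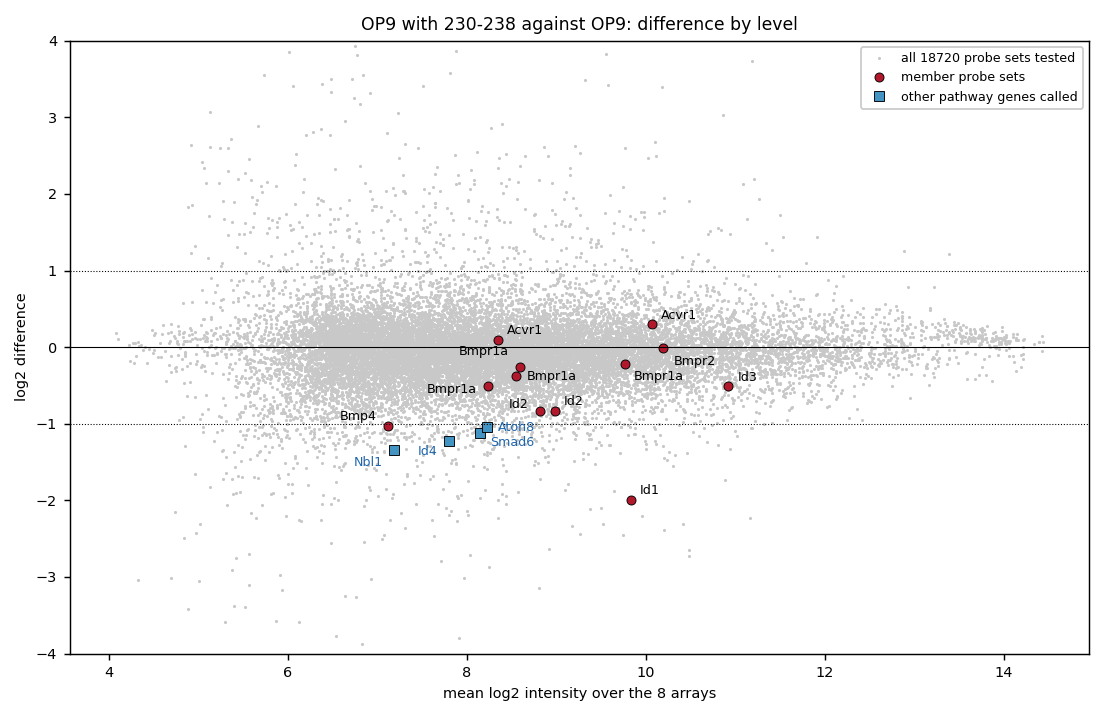
Log2 difference of OP9 with 230-238 to OP9 (vertical axis) against the mean log2 intensity over the 8 arrays (horizontal axis) for 18720 probe sets (grey), the member probe sets (red) and the other pathway genes called (blue). The axis ends at 4 in both directions and leaves out 14 probe sets; dotted lines mark 2-fold, and Id1 lies at -1.99.

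The starts of some of these genes are shown because they fell together in the co-cultured cells. They are the 250 bases before the RefSeq gene start of Bmp4 (chr14:46390670-46390919, minus strand), Id2 (chr12:25096093-25096342, minus strand), Id3 (chr4:136143572-136143821, plus strand) and Id4 (chr13:48260866-48261115, plus strand) in GRCm38.p6, each written 5′ to 3′ along the gene. Such a window was found for 8 of the 10 members, Id1 and Bmp2 not among them. Capitals mark GGCGCC, a GC-rich element bound by SMAD1 and SMAD5, and GTCT on either strand (AGAC on the other), the short SMAD box.
Bmp4: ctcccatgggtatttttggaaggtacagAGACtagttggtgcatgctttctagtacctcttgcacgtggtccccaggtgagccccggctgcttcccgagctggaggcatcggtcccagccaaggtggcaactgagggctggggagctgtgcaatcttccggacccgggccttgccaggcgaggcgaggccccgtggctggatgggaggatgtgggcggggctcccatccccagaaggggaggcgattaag
Id2: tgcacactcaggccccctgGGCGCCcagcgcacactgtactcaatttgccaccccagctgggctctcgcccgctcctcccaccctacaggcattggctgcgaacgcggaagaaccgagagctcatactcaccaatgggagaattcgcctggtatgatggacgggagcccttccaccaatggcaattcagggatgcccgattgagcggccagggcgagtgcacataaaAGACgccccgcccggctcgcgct
Id3: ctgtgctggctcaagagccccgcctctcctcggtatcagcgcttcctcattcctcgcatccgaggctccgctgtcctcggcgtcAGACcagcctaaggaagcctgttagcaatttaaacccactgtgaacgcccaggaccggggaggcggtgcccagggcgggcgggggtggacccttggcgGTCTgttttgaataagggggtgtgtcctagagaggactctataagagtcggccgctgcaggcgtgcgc
Id4: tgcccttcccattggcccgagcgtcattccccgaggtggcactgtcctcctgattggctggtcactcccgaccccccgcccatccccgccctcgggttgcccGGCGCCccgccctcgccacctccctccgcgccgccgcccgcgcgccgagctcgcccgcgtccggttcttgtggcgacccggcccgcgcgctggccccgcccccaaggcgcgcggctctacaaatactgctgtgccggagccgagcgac

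GGCGCC occurred 1 time each in the windows of Id2 and Id4 and not in those of Bmp4 and Id3, and 9.59% of 32851 windows of all genes held it. GTCT occurred 1 time in Bmp4 and Id2, 2 times in Id3 and not in Id4, and 82.9% of all windows held it. These matches describe letters in a short window and are not binding sites found here.

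The lines themselves were compared to ask which BMP genes set OP9 apart from NIH3T3, the line described as unable to support B-cell development. The OP9 arrays in these comparisons are the same ones that served as controls of the co-culture. Against NIH3T3 5 of the 12 member probe sets were called higher and none lower, and of all probe sets 20.8% were called higher and 11.8% lower (32.6% in either direction). Without the 2-fold minimum 10 were higher and 2 lower, against 44.5% higher and 31.5% lower among all, and the counts were the same at an unadjusted p below 0.05, against 45.3% higher and 32.3% lower. The median log2 difference was 0.50 over the 12 probe sets and 0.15 over all, which became 0.01 over all after quantile normalization. Counted by gene, 4 of 7 were called higher and none lower, with a median of 1.13.

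The ID genes made up 4 of the 5 calls. Id3 read 4019 and 3594 in OP9, against 702 and 815 in NIH3T3, a log2 difference of 2.33 (SE 0.10, adjusted p = 7.65e-07, limma) or 5.02-fold. Id2 on 1435176_a_at read 992 and 1053 in OP9, against 76.3 and 92.2 in NIH3T3, a log2 difference of 3.61 (SE 0.14). On 1422537_a_at the log2 difference was 2.19 (SE 0.13), with 693 and 750.5 in OP9 and 177 and 141 in NIH3T3, so the 2 probe sets gave 12.2-fold and 4.55-fold. On 1435176_a_at both NIH3T3 arrays were below the level for testing, so the size of that difference depends on background signal. Id1 was 2.18-fold higher in OP9 (log2 difference 1.13, SE 0.10, adjusted p = 3.15e-05, limma).

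Bmp4 in NIH3T3 (40.9 and 28.1) was below the level for testing, and its log2 difference between OP9 and NIH3T3 of 3.43 (SE 0.17) therefore depends on background signal. Bmp6 went the other way at a low level, with 21.3 and 15.7 in OP9 and 37.5 and 32.7 in NIH3T3 (log2 difference -0.94, adjusted p = 0.00242 with no filter, limma). Acvr1 was lower in OP9 on both tested probe sets, at log2 differences of -0.66 and -0.39 (adjusted p = 0.000189 and 0.0118, limma), below 2-fold. The 4 Bmpr1a probe sets and that of Bmpr2 were higher by 0.20 to 0.58, all past the test and below 2-fold.

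Against NIH3T3, OP9 had 10 of the 30 other pathway genes called higher and 5 called lower, against 20.8% and 11.8% among all probe sets. The antagonist genes Bmper (1383 and 1318 in OP9, 13.4 and 13.0 in NIH3T3), Fst (304 and 310.4 in OP9, 11.9 and 12.9 in NIH3T3) and Chrdl1 (199 and 216 in OP9, 12.7 and 12.2 in NIH3T3) were near the bottom of the scale in NIH3T3. All 4 tested targets were called higher in OP9, with log2 differences of 5.26 for Id4, 4.83 for Dlx5, 2.03 for Atoh8 and 1.28 for Msx1. Those of Id4, Dlx5 and Msx1 depend on background signal, since NIH3T3 read 9.7 and 8.6 for Id4, 32.2 and 25.6 for Dlx5 and 51.9 and 50.6 for Msx1. Smad6 was higher by 2.13 and the E protein gene Tcf4 by 1.95. Lower in OP9 were the co-receptor genes Eng (-1.40) and Rgmb (-1.02) and the inhibitor genes Skil (-1.97) and Smurf1 (-1.04). The other 3 tested probe sets of Rgmb did not follow it, at 0.15, -0.01 and 0.44, the last of which passed the test in the other direction (adjusted p = 0.0130, limma). The fifth gene called lower, the type II receptor gene Acvr2b (50.1 and 53.9 in OP9, 188 and 175 in NIH3T3), reached 100 in NIH3T3 alone and was tested only for that reason. The call also differed between probe sets for Smurf1, where the second was lower by -0.96, and for Smad4, Tcf12 and Twsg1, each with 1 probe set called (-1.34, -1.67 and 1.01) and the one used here under 2-fold. Rgmb and Smurf1 fell under 2-fold with median scaling (-0.96 and -0.98), with a pseudocount of 16 and without single arrays.

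Against MC3T3 2 of the 12 member probe sets were called higher in OP9 and none lower, those of Bmp4 and Id3, and of all probe sets 10.4% were called higher and 9.70% lower (20.1% in either direction). Without the 2-fold minimum 6 were higher and 1 lower, against 33.1% higher and 29.8% lower among all, and at an unadjusted p below 0.05, 6 were higher and 2 lower, against 34.9% and 31.6%. Counted by gene, 2 of 7 were called higher and none lower. Id3 read 4019 and 3594 in OP9, against 1869 and 1873 in MC3T3 (log2 difference 1.02, SE 0.10, adjusted p = 8.07e-05, limma), and its call was lost with median scaling (0.997, just under 2-fold) and without array 1 of OP9 (0.94). Id1 was higher in OP9 by 0.89 (SE 0.10, adjusted p = 1.77e-04, limma), under 2-fold. Id2 ran in the other direction, with 693 and 750.5 in OP9 against 872 and 922 in MC3T3 on 1422537_a_at and 992 and 1053 against 1449.9 and 1224 on 1435176_a_at. These log2 differences were -0.32 and -0.38 (adjusted p = 0.0660 and 0.0411, limma), without overlap of the groups on either probe set.

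The receptor Acvr1 was higher in OP9 than in MC3T3 by 0.46 and 0.49 on its 2 tested probe sets (adjusted p = 0.00185 and 0.00572, limma). Bmpr2 (0.13, 95% interval -0.04 to 0.31) and 3 of 4 Bmpr1a probe sets did not pass the test, and 1425492_at was higher by 0.24 (adjusted p = 0.0190, limma). Grem1 read 31.7 and 29.5 in OP9, against 90.8 and 83.1 in MC3T3, all below the level for testing (log2 difference -1.51, adjusted p = 2.72e-04 with no filter, limma). Grem1 thus had its highest values in MC3T3, followed by OP9 with 230-238 (54.8 and 52.1), while OP9 and NIH3T3 (34.2 and 23.5) overlapped.

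Among the other pathway genes 7 were called higher and 3 lower in OP9 than in MC3T3, against 10.4% and 9.70% among all probe sets. Sostdc1, a secreted BMP and Wnt antagonist, read 13.6 and 11.2 in OP9, against 1810.2 and 1899 in MC3T3, and was at 10.6 to 14.2 in the other groups, so that it was tested only through MC3T3. Id4 read 359 and 342 in OP9, against 5158 and 5139 in MC3T3 (log2 difference -3.88, SE 0.10), and Chrdl1 was lower by -2.28. Bmper was higher in OP9 by 4.40, Smad6 by 2.17, Nbl1 by 1.94, Rgma, a BMP co-receptor gene, by 1.86, Atoh8 by 1.83, Fstl3 by 1.57 and Tgfbr3, the gene of betaglycan, by 1.37. In MC3T3 Bmper (67.3 and 60.8), Rgma (89.3 and 83.9) and Fstl3 (60.0 and 59.8) were below the level for testing, so these differences depend on background signal. Calls differed between probe sets for Tgfbr3 (0.68 on the second), Smurf1 (-1.12 on the second, -0.83 on the one used) and Rgmb (1.02 on one, 0.07 on the one used).

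MC3T3 was set against NIH3T3 to complete the order of the lines. 4 of the 12 member probe sets were called higher in MC3T3 and 1 lower, and of all probe sets 18.5% were called higher and 11.3% lower (29.7% in either direction). Without the 2-fold minimum 7 were higher and 2 lower, against 43.0% higher and 30.7% lower among all. Counted by gene, 3 of 7 were called higher and none lower, and without the 2-fold minimum 3 were higher and 1 lower. The median log2 difference was 0.51 over the probe sets and 0.24 over the genes. Among the probe sets the calls were as follows. The higher ones were Bmp4 (log2 difference 2.30, SE 0.17), both Id2 probe sets (5.67-fold and 15.9-fold) and Id3 (log2 difference 1.31). In NIH3T3 Bmp4 (40.9 and 28.1) and Id2 on 1435176_a_at (76.3 and 92.2) were below the level for testing. The 2.30 and the 15.9-fold therefore depend on background signal. The lower one was Acvr1 on 1416786_at (216 and 234 in MC3T3, 479 and 499 in NIH3T3, log2 difference -1.12, SE 0.08, adjusted p = 1.3e-05, limma). On the other Acvr1 probe set, 1448460_at, the difference was -0.88, and it passed 2-fold without array 1 of NIH3T3 (-1.02). Id1 (0.24, 95% interval 0.01 to 0.47) did not pass the test (adjusted p = 0.0591, limma).

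Of the other pathway genes 7 were called higher and 7 lower in MC3T3 than in NIH3T3, against 18.5% and 11.3% among all probe sets. Among the higher ones, Id4 (5158 and 5139 in MC3T3, 9.7 and 8.6 in NIH3T3), Sostdc1 (1810.2 and 1899 in MC3T3, 14.2 and 13.1 in NIH3T3), Chrdl1 (1246 and 818 in MC3T3, 12.7 and 12.2 in NIH3T3) and Fst (445 and 514 in MC3T3, 11.9 and 12.9 in NIH3T3) were at the bottom of the scale in NIH3T3, where the size of a difference depends on background signal. Of the receptor genes, Rgma (-1.87), Tgfbr3 (-1.46), Eng (-1.14) and Rgmb (-1.08) were called lower in MC3T3, with Rgma below 100 in MC3T3. Acvr2b was called lower too, having been tested only through NIH3T3 (29.4 and 28.5 in MC3T3). The other 3 Rgmb probe sets passed the test in the same direction at -0.54 to -0.70, under 2-fold, and for Smad4 and Tcf12 another probe set than the one used was called lower (-1.09 and -2.18). Skil (-2.31) and Fstl3 (-1.64) were also called lower. The calls for Rgmb and Eng were lost without single arrays, at log2 differences of -0.996 for Rgmb and -0.99 for Eng, and that of Rgmb also with median scaling (-0.995).

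The order of the groups differed between genes, with Bmp4 and Id3 sharing one order. Bmp4 was highest in OP9, then OP9 with 230-238 and MC3T3, which did not differ beyond their spread, and lowest in NIH3T3. Id1 ran OP9, MC3T3, NIH3T3 and OP9 with 230-238, the middle pair not passing the test. Id2 was highest in MC3T3, then OP9, OP9 with 230-238 and NIH3T3 on both tested probe sets, MC3T3 and OP9 passing the test on 1435176_a_at and missing it on 1422537_a_at. Id3 ran OP9, OP9 with 230-238, MC3T3 and NIH3T3, and each neighbouring pair passed the test.

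The probe sets most like Bmp4 over the 8 arrays were found among 2468 that varied by an SD of at least 1 on the log2 scale. They belonged to Dph3, Adh1, Adcy9, Zfp704 and Igf1, with Pearson correlations of 0.991 to 0.992 of the log2 values. Igf1, a growth factor, read 635 and 602 in OP9 with 230-238, 1589 and 1561 in OP9, 736 and 820.1 in MC3T3 and 73.1 and 52.6 in NIH3T3. Adh1, an alcohol dehydrogenase, read 217 and 212 in OP9 with 230-238, 549 and 594 in OP9, 223 and 211 in MC3T3 and 44.7 and 38.3 in NIH3T3. The 8 arrays form 4 pairs, so these correlations rest on the 4 group levels and are given as a description.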

How the data were processed

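RNA of the 8 samples was measured on 1-colour arrays. Linear, normalized intensity values of 45101 probe sets were deposited. RMA Express, affylmGUI and dChip are named in the methods. Which program wrote the table was not given in these sources. RMA compresses differences near background, and the table holds no detection calls. Array medians were 41.8 to 45.0. Precision is limited by having 2 arrays a group.

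Probe sets were named through the platform annotation (34958 with 1 symbol, 932 with several and left unnamed, 9211 with none). Intensities were taken to log2 with no pseudocount, and a probe set was tested if 2 or more arrays read at least 100. Group means were fitted over all 8 arrays with limma 3.58.1 in R 4.3.3 (lmFit, eBayes, Benjamini-Hochberg). Intervals are at 95%. A pathway gene was its probe set of highest mean. All members were described, and from the pathway list up to 4 called genes in each direction with the largest difference were taken, with others to complete a role, chosen after their values were seen. The pairs of OP9 with 230-238 with MC3T3 and NIH3T3 were added to order the levels. The members and the lists of pathway genes and cell markers were chosen with earlier results of these data known. The model was tested on simulated data. Promoter windows came from RefSeq (GRCm38.p6) and were searched with Python 3.11.15. Alternatives were other filters (none, or at least 200), quantile normalization, median scaling, a pseudocount of 16, fits of the compared arrays alone, a trended robust prior, a replicate block, 1 probe set a gene, probe sets ending in _x_at or _s_at left out, 2 other call rules and each array left out.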

Additional observations from a re-analysis of the deposited data

How the results depend on the processing

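Counts of called probe sets are given for OP9 with 230-238 against OP9, OP9 against NIH3T3, OP9 against MC3T3 and MC3T3 against NIH3T3 in this order. In the fit as reported they were 1004, 6107, 3764 and 5569 over all probe sets and 2, 5, 2 and 5 over the members. With the study's rule of 5-fold, a mean above 100 and an unadjusted p below 0.05 they were 120, 1584, 986 and 1318, and 0, 3, 0 and 2 for the members. With the adjusted p alone they were 6983, 14226, 11762 and 13782, and 7, 12, 7 and 9. With 1 probe set a gene, which tests fewer features, they were 578, 3147, 2034 and 2793, and 3 members were called in MC3T3 against NIH3T3. In the co-culture 1 member was called after quantile normalization and 1 with a pseudocount of 16, and in OP9 against MC3T3 1 was called with median scaling. Leaving out single arrays gave 974 to 1022, 5956 to 6395, 3758 to 3811 and 5350 to 5925 over all, and 1 to 2, 5 to 5, 1 to 2 and 5 to 6 members. Replicate numbers were only shared (correlations of same-numbered deviations 0.03 to 0.18), and with the replicate block the counts were 1005, 6107, 3764 and 5571, and 2, 5, 2 and 5, so no count of members changed. Signs turned only for uncalled differences near 0. For Bmpr2 the log2 difference was 0.029 in co-culture after quantile normalization and -0.067 to 0.034 without single arrays, and -0.041 in MC3T3 against NIH3T3 after quantile normalization. For Bmpr1a it was -0.29 to 0.024 (1425493_at) and -0.081 to 0.19 (1425494_s_at) in OP9 against MC3T3 without single arrays. In MC3T3 against NIH3T3 1425492_at was at 0.074 with median scaling and -0.054 to 0.027 without single arrays. The causes were not tested.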

Other observations

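Macrophage and endothelial markers were read on the same arrays and used in no comparison above. The 5 macrophage genes summed to 487 to 509 in OP9 with 230-238, 354 to 384 in OP9, 307 to 314 in MC3T3 and 932 to 948 in NIH3T3. Only Cd68 and Cd14 reached 100 on any array. Cd68 read 523 and 541 in NIH3T3, and Cd14 read 251 and 252 in OP9 with 230-238 against 134 and 144 in OP9. Csf1r (69.6 to 87.8), Adgre1 (16.3 to 23.6) and Itgam (10.0 to 14.7) stayed below 100 on all arrays. None of the 4 endothelial genes reached 100 in any group. Adipocyte genes, which were high in OP9, summed to 98.2 to 104 in MC3T3 and to 4730.1 to 4979 in NIH3T3, where Lpl alone read 4342 and 4583. Phex, listed as an osteoblast gene, read 46.7 and 43.8 in OP9 with 230-238, 131 and 117 in OP9, 29.7 and 28.6 in MC3T3 and 109 and 159 in NIH3T3.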
